A study of Mus musculus with 10 samples.

Results

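Glycosaminoglycans are long sugar chains, most of them attached to proteoglycan core proteins. The enzymes described here build and sulfate these chains. They are the 37 genes of a list that was chosen with earlier results of these data known. They were found by Ensembl identifier among the 32285 genes of a count table from mouse Achilles tendon. By role they comprise 5 enzymes of the linker sugars, 6 of chondroitin chain polymerization, 9 of chondroitin and dermatan modification, 5 exostosins, 9 of heparan modification and 3 hyaluronan synthases. Of the 37, 35 passed the filter on low counts. The other 2 were Chst13, a chondroitin 4-O-sulfotransferase (0 to 5 counts per library), and Ndst4, an N-deacetylase/N-sulfotransferase of heparan chains (0 to 8 counts).

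The 10 RNA-seq libraries covered 3 genotypes that differ at Mkx, the gene of the tendon transcription factor Mohawk. Mkx-CreER/flox mice (n = 3 libraries) carried a floxed Mkx allele and an Mkx-CreER allele, whose Cre recombinase is active only with tamoxifen and only where that allele is expressed. Of the controls, Mkx-CreER/+ (n = 3) had the CreER allele without the floxed one and Mkx-flox/+ (n = 4) had the floxed allele without CreER. Mice of all 3 genotypes received tamoxifen (20 mg/kg) at 6 weeks of age, and tendons were taken 4 weeks later, so none is an untreated control. The series text names the floxed control as Mkx-flox, so its number of floxed copies is uncertain, and the sources used here do not state whether the CreER allele disrupts Mkx. The labels number the replicates without saying that each is a separate animal, so the p-values measure the spread between these samples, part of which may be technical. Library numbers below are those of the count table's columns.

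As background, chondroitin, dermatan and heparan sulfate share a linker that is built on a serine of the core protein, and the first sugar added after it decides between a chondroitin and a heparan chain. Dermatan sulfate arises from chondroitin when an epimerase such as that encoded by Dse converts glucuronic acid to iduronic acid and the sulfotransferase encoded by Chst14 then sulfates the neighbouring sugar. In tendon, dermatan and chondroitin sulfate chains on decorin and biglycan lie between collagen fibrils, and inherited loss of CHST14 or DSE in people causes a form of Ehlers-Danlos syndrome. Hyaluronan is made without a core protein, at the plasma membrane.

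Promoter sequence is shown for the enzymes that passed a test in at least 1 comparison, to let a reader see the DNA upstream of the genes whose transcripts differed. RefSeq promoter entries (GRCm38.p6) were matched by symbol for 28 of the 37 enzymes. Only the stretch from the far upstream end to the first annotated exon base is printed, which left Chst14, Chst12 and Extl1. The entries of Chpf and Dse already start within an annotated exon, of these or other genes, so none of their bases are printed. Capitals mark the E-box CANNTG, the motif of basic helix-loop-helix factors, and the CCAAT box, searched on both strands without overlap between them.
Chst14, chr2:118926247-118926495, plus strand: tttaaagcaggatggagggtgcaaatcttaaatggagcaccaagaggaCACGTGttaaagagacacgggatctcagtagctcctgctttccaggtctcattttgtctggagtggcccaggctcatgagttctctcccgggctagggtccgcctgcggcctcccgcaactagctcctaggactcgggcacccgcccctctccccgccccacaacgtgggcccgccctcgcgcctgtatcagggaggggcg
Chst12, chr5:140505359-140505549, plus strand: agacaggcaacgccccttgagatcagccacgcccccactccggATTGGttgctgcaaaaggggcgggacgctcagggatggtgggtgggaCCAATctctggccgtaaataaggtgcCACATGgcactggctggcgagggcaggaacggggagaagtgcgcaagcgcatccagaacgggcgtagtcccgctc
Extl1, chr4:134372559-134372797, minus strand: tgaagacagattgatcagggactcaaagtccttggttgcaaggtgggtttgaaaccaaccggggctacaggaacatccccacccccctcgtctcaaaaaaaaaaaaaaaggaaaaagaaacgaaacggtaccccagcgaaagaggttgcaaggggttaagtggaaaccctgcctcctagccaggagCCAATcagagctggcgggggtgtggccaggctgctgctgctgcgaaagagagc
The Chst14 stretch holds 1 E-box and 0 CCAAT boxes, that of Chst12 holds 1 and 2, and that of Extl1 holds 0 and 1. Of 32851 RefSeq promoters, 66.2% held an E-box and 33.8% a CCAAT box in the 250 bases before the start. The matches are descriptions of sequence, not of factor binding. The Extl1 stretch lies inside the annotated span of the gene, clear of its exons.

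Library depth lay between 8680934 and 22656417 counts, at which 3 counts correspond to 0.126 to 0.360 CPM (counts relative to library size, scaled by the TMM method). Mkx stood at 159.7 ± 29.6 CPM in Mkx-flox/+ (SD, n = 4), at 92.9 ± 1.30 in Mkx-CreER/+ (n = 3) and at 29.7 ± 3.19 in Mkx-CreER/flox (n = 3). It fell by 2.04 on the log2 scale against the mean of both controls (SE 0.176, edgeR adjusted p = 0.000149). It fell by 1.65 against Mkx-CreER/+ (edgeR adjusted p = 0.00637) and by 2.43 against Mkx-flox/+ (3.61e-05). Between the controls its difference of -0.78 did not pass (0.489). The call against Mkx-CreER/+ was lost without Mkx-CreER/flox 4 (log2 fold change -1.71, adjusted p = 0.0549). None of the 9 tendon markers, among them Scx and Tnmd, was at 0 in any library. Their share of the counts was 2.80% ± 0.462 in Mkx-CreER/flox, 4.71% ± 0.643 in Mkx-CreER/+ and 9.27% ± 2.28 in Mkx-flox/+. Library Mkx-CreER/flox 1 stood apart, its score on the first principal component being 84.6 where the other 9 libraries had -40.9 to 36.9.

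RNA of skeletal muscle and of mitochondria was not equal among the genotypes. In 32 skeletal muscle genes, none of which was at 0 in any library, lay 13.4%, 9.57% and 8.29% of the counts of Mkx-CreER/flox 1, 4 and 5. The same genes took 3.61%, 8.77% and 6.93% in Mkx-CreER/+ 1, 2 and 4 and 1.88% to 5.72% in Mkx-flox/+. This 32-gene list was chosen after the data were seen. With a narrower list of 20 muscle genes, of which 5 rose and 0 fell against both controls, the ranges were 2.56% to 3.39%, 1.45% to 4.43% and 0.656% to 2.70%. The Mkx-CreER/flox range of the narrower list thus overlapped with that of each control. The 13 mitochondrially encoded genes took 8.85%, 5.32% and 3.96% in Mkx-CreER/flox 1, 4 and 5, 2.33% to 4.78% in Mkx-CreER/+ and 1.92% to 2.31% in Mkx-flox/+. All 12 macrophage markers fell against both controls, to 0.0634% to 0.0912% of the counts from 0.116% to 0.274% in the 7 controls. Against Mkx-CreER/+ alone 0 of them were called, though all 12 had negative log2 fold changes. Of 10 Schwann cell markers 1 rose, all 10 having positive log2 fold changes (median 2.28), and their share was 0.0483%, 0.155% and 0.259% in Mkx-CreER/flox 1, 4 and 5 against 0.0564% to 0.114% in the controls. Of 8 mural cell markers 2 rose (median 0.78), at 0.106% to 0.186% of the counts against 0.0730% to 0.1099% in the controls. Of 8 endothelial markers 1 rose (median 0.42). Of the 9 tendon markers, which include Mkx, 5 fell against both controls (median -1.47). Of 7 tested chondrocyte markers 2 fell (median -0.01). Beside these counts, 3.03% of all 16017 genes tested were called higher against both controls and 1.62% lower. These values stand beside the enzyme results because each enzyme is read as part of the whole tendon sample, in which fewer cells of a type and less RNA per cell cannot be told apart.

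Tendon expressed each step of the pathway. Per kilobase of exon (RPKM, mean of the 3 genotype means), the highest enzymes were Dse at 24.1, Csgalnact2, which adds the first sugar of a chondroitin chain, at 20.7, and the chondroitin 4-O-sulfotransferase Chst12 at 19.8. Among the exostosins, Extl3, which starts heparan chains, stood at 14.6 and Ext2, a subunit of the heparan polymerase, at 11.6. The main N-deacetylase/N-sulfotransferases of heparan chains, Ndst1 and Ndst2, stood at 11.7 and 6.19. Of the linker enzymes the highest were the glucuronyltransferase B3gat3 at 5.12 and the xylosyltransferase Xylt1, which adds the first sugar, at 4.89. The lowest tested members were Hs6st2 at 0.0999, with 0 to 45 counts per library, and Ndst3 at 0.113. No tested enzyme lay between Ndst3 and Has1, the next at 1.60. Extl1 stood at 2.01, above Has1, Chst7, B3galt6 and Has3 (1.60 to 1.75). Its genotype means were 0.528 in Mkx-flox/+, 1.28 in Mkx-CreER/+ and 4.23 in Mkx-CreER/flox.

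**Figure D1:**
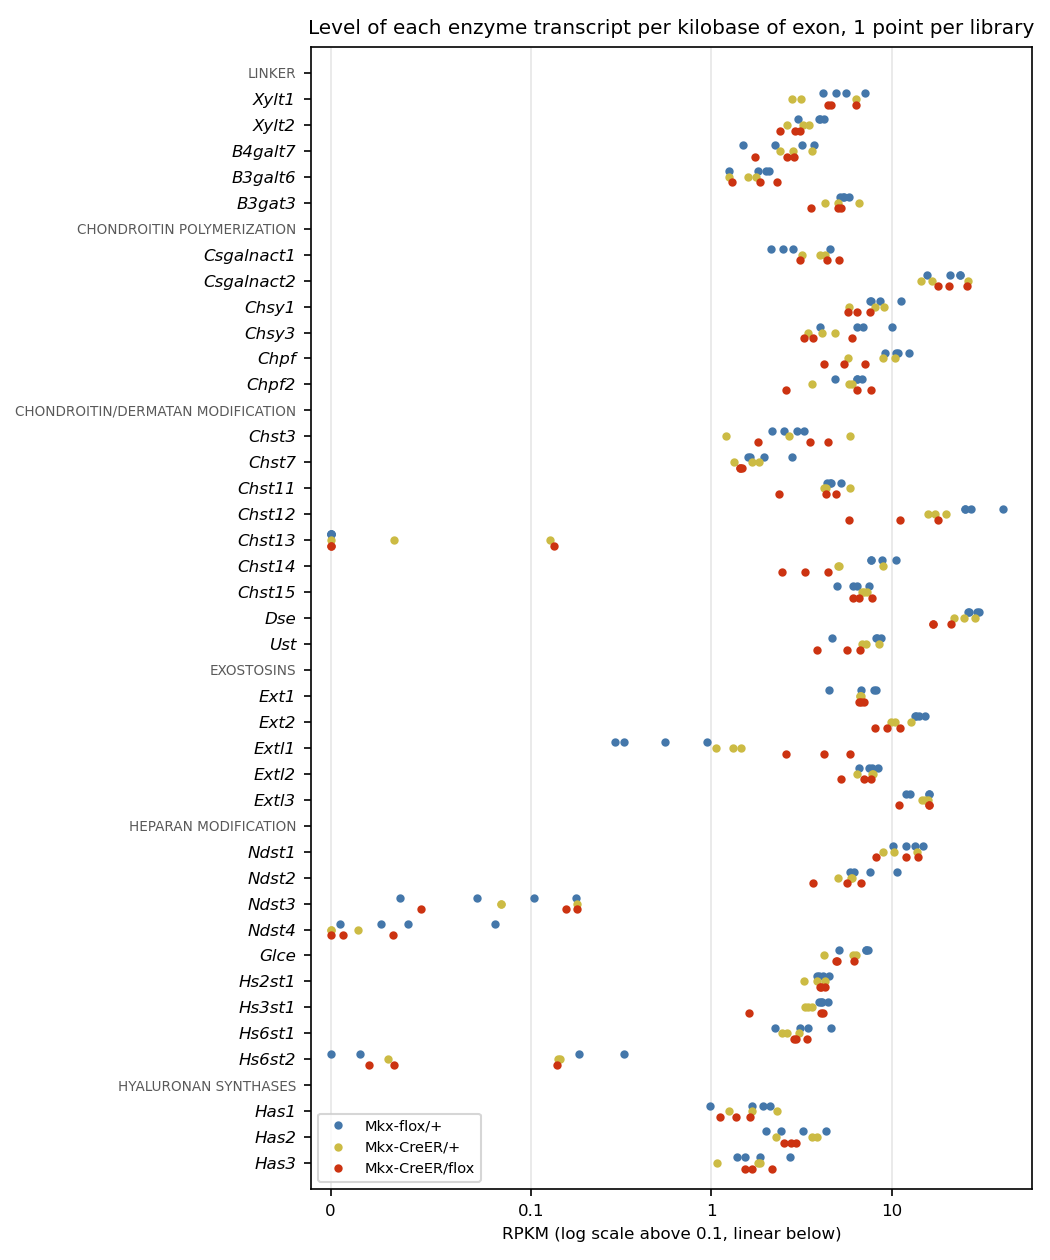
Level of each of the 37 enzymes per kilobase of exon (x axis, RPKM, log scale above 0.1 and linear below), 1 point per library, coloured by genotype and grouped by role. Dse, Csgalnact2 and Chst12 are the highest, while Extl1 has the 3 Mkx-CreER/flox libraries above those of both controls.

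The first comparison asked which of the enzymes differed in Mkx-CreER/flox from both controls, each control genotype given equal weight. Extl1, a glycosyltransferase of the exostosin family, rose 5.21-fold, and Chst14, the dermatan 4-O-sulfotransferase, fell 2.20-fold, while 33 of the 35 tested enzymes did not pass. That is 1 enzyme higher (2.86%) and 1 lower (2.86%), beside 3.03% of all 16017 genes tested called higher and 1.62% called lower. The median log2 fold change of the 35 was -0.18, with 12 positive and 23 negative, and that of all genes was 0.02. That lean moved with the setting. The median of the 35 was -0.24 with upper-quartile scaling (9 positive, 26 negative, all genes at -0.03), -0.08 with a 20-gene muscle score as a covariate, -0.02 with the 32-gene one (15 positive, 20 negative) and -0.09 without Mkx-CreER/flox 1. DESeq2 called 5 enzymes here, beside 9.11% of all genes, and limma voom 6 (17.1%), beside 18.7%. Both tools called Extl1 higher and Chst14, Chst12, Chpf and Dse lower. Neither edgeR call held with the 32-gene muscle score or with the mitochondrial score as a covariate, both chosen after the data were seen. With each of these scores edgeR called 0 of the 35, beside 0.0250% of all genes with the muscle score and 0.0437% with the mitochondrial one, so the loss was not limited to these enzymes. In each case 5 enzymes had an unadjusted p under 0.05, Extl1 and Chst14 among them. The share of all genes at that threshold was not counted with the scores, so these 5 are not read as a result. Without a score, 6 enzymes (17.1%) had such a p, beside 3310 of the 16017 genes. With the 20-gene muscle score 1 enzyme, Extl1, was called, beside 0.687% of all genes.

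Extl1 (ENSMUSG00000028838, chromosome 4, 134356372 to 134383850, minus strand, mm10) transfers N-acetylglucosamine during heparan chain elongation. It measured 25.6, 18.2 and 11.2 CPM in Mkx-CreER/flox 1, 4 and 5. In Mkx-CreER/+ 1, 2 and 4 it measured 6.29, 5.73 and 4.63 CPM, and in Mkx-flox/+ 1 to 4 it measured 1.27, 2.39, 1.42 and 4.08. The 3 groups did not overlap, with Mkx-flox/+ lowest and Mkx-CreER/flox highest. Against both controls the log2 fold change was 2.38 (SE 0.319, edgeR adjusted p = 0.00467). Against Mkx-flox/+ alone it rose 8.22-fold, by 3.04 (SE 0.393, edgeR adjusted p = 0.00273). Against Mkx-CreER/+ alone it did not pass, at 1.73 (SE 0.398, edgeR adjusted p = 0.328), although DESeq2 (adjusted p = 0.0106) and limma voom (0.0112) called it there. Between the controls the difference was 1.31 (SE 0.393, edgeR adjusted p = 0.690).

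Both Extl1 calls were made whichever library was left out, with log2 fold changes of 2.05 to 2.62 against both controls and 2.71 to 3.45 against Mkx-flox/+. They were also made with the 20-gene muscle score as a covariate (2.12 and 2.70, edgeR adjusted p = 0.0325 and 0.0164). With the 32-gene muscle score the log2 fold changes were 1.73 and 2.21 and did not pass (adjusted p = 0.167 and 0.129). With the mitochondrial score they were 2.004 and 2.57 (adjusted p = 0.316 and 0.236). Among the Mkx-CreER/flox libraries, Extl1 was highest in library 1, where the muscle and mitochondrial shares were also highest, and lowest in library 5, where both were lowest. Mkx-CreER/+ 2 had a higher 32-gene muscle share (8.77%) than Mkx-CreER/flox 5 (8.29%) and less Extl1 (5.73 against 11.2 CPM). The part of these shares in the Extl1 result cannot be told apart from genotype.

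**Figure D2:**
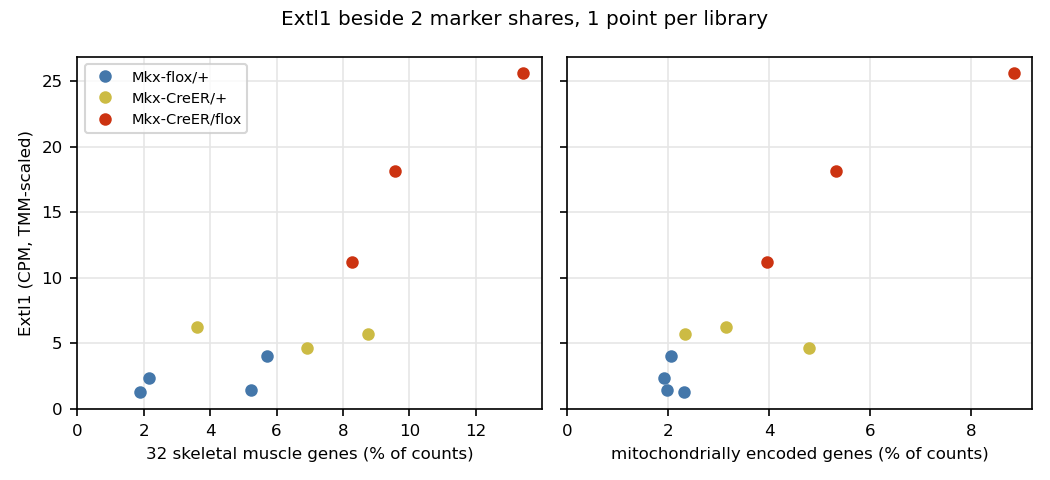
Extl1 (y axis, CPM) against the share of counts in 32 skeletal muscle genes (left, %) and in the 13 mitochondrially encoded genes (right, %), 1 point per library. The 3 Mkx-CreER/flox libraries, at 11.2 to 25.6 CPM, lie above every control, and library 1 is highest on both x axes.

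The other exostosins did not pass in any of the 4 edgeR comparisons. Ext1, the partner of Ext2 in the heparan polymerase, stood at 55.2 ± 13.6 CPM in Mkx-flox/+ (SD, n = 4), at 54.3 ± 0.522 in Mkx-CreER/+ (n = 3) and at 54.9 ± 1.82 in Mkx-CreER/flox (n = 3). Ext2 measured 59.4, 69.2 and 81.3 CPM in Mkx-CreER/flox, 76.7, 93.4 and 72.3 in Mkx-CreER/+ and 99.3, 112, 99.5 and 103 in Mkx-flox/+. The Mkx-CreER/flox libraries were thus below all Mkx-flox/+ ones, at a log2 fold change of -0.57 (SE 0.165, edgeR adjusted p = 0.0518), which DESeq2 and limma voom called, and overlapped with Mkx-CreER/+. Extl3 stood at -0.03 (SE 0.163) against both controls. Summed over the 5 exostosins per kilobase, Extl1 made up 1.22% ± 0.683 in Mkx-flox/+ (n = 4), against 3.07% ± 0.461 in Mkx-CreER/+ (n = 3) and 10.3% ± 4.43 in Mkx-CreER/flox (n = 3). It remained a minor member of the family in RNA level in each genotype.

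The 4 enzymes that edgeR called lower in any comparison act on chondroitin and dermatan chains. The comparison with Mkx-flox/+ alone called 1 enzyme higher (Extl1, 2.86%) and 4 lower (Chst14, Chst12, Chpf and Dse, 11.4%), beside 4.37% and 2.90% of all genes tested. Of the 4, 3 belong to the 8 tested enzymes of chondroitin and dermatan modification and 1, Chpf, to the 6 of chondroitin polymerization. Of 5 linker enzymes, 8 tested enzymes of heparan modification and 3 hyaluronan synthases, 0 were called. Whether the classes differ was not tested, and 6 of 8 enzymes had negative log2 fold changes in heparan modification as in chondroitin and dermatan modification. The median log2 fold change over the 35 was -0.19, against 0.01 for all genes, with 9 positive and 26 negative. This became 5 and 30 with upper-quartile scaling (median -0.25), and 13 and 22 with the 32-gene muscle score (median -0.12) and with the mitochondrial score (-0.21). Of the 4 lower enzymes, 0 were called with the 32-gene muscle score or with the mitochondrial score, and 1, Chst14, with the 20-gene muscle score. Of all genes, 0.0749%, 0.0312% and 1.27% were called with these scores in turn. All 4 lower enzymes had an unadjusted edgeR p under 0.05 with either muscle score, and only Chst14 with the mitochondrial score. The share of all genes at that threshold was not counted with the scores, so this is not read as a result. Both comparisons use the same Mkx-CreER/flox and Mkx-flox/+ libraries and are therefore not independent.

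**Figure D3:**
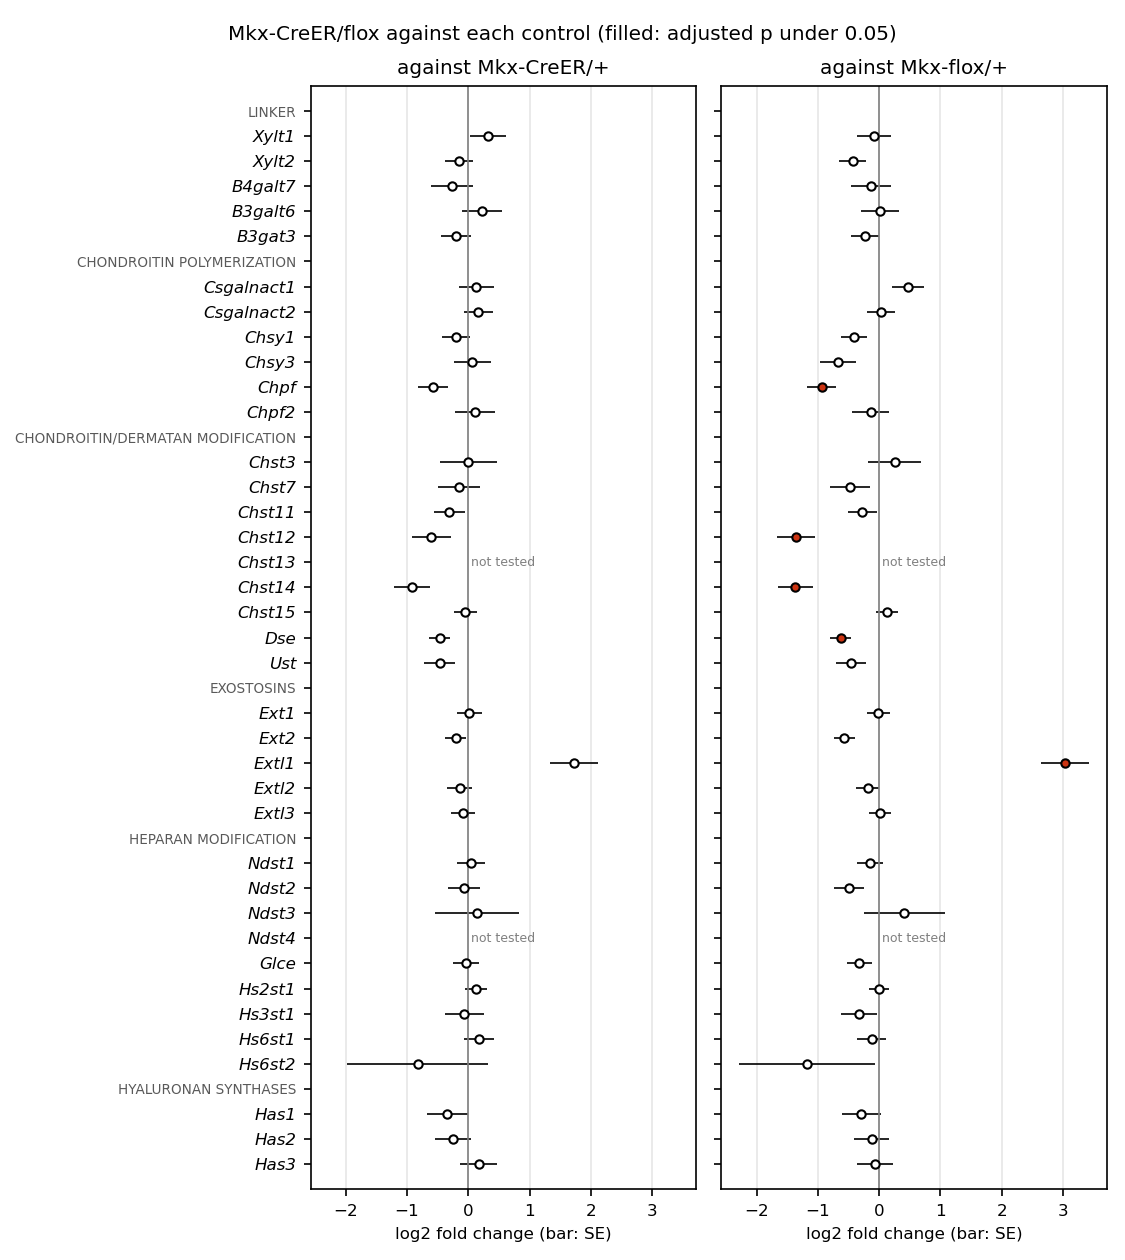
Log2 fold change (x axis) of each enzyme in Mkx-CreER/flox against Mkx-CreER/+ (left) and against Mkx-flox/+ (right), with bars for the SE and filled points for an edgeR adjusted p under 0.05. On the left 0 points are filled. On the right 5 are, with Extl1 at 3.04 and Chst14, Chst12, Chpf and Dse between -1.37 and -0.63.

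Chst14 (ENSMUSG00000074916, chromosome 2, 118926496 to 118928585, plus strand) measured 9.23, 5.15 and 6.88 CPM in Mkx-CreER/flox 1, 4 and 5. It measured 18.7, 10.5 and 10.7 in Mkx-CreER/+ 1, 2 and 4 and 15.96, 16.1, 18.5 and 22.1 in Mkx-flox/+ 1 to 4. The 3 Mkx-CreER/flox libraries were below all 7 controls. The log2 fold change was -1.14 against both controls (SE 0.262, edgeR adjusted p = 0.0292) and -1.37 against Mkx-flox/+ (SE 0.284, adjusted p = 0.0135), a 2.58-fold fall. Against Mkx-CreER/+ it was -0.91 and did not pass (SE 0.294, edgeR adjusted p = 0.329), though limma voom called it at -1.25 (adjusted p = 0.0184).

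Leaving out a library ended the Chst14 call against both controls in 5 of 10 cases. Its log2 fold change was then -0.95 when Mkx-CreER/flox 4 was left out (edgeR adjusted p = 0.119), -0.995 for Mkx-CreER/+ 1 (0.0673), -1.21 for Mkx-CreER/+ 2 (0.0587), -1.18 for Mkx-flox/+ 1 (0.0512) and -1.14 for Mkx-flox/+ 3 (0.0504). The call against Mkx-flox/+ was lost without Mkx-CreER/flox 4 (-1.18, 0.0579). With the 32-gene muscle score the values were -1.35 against both controls (0.1998) and -1.63 against Mkx-flox/+ (0.164), and with the mitochondrial score -1.33 (0.435) and -1.61 (0.365). The size of the Chst14 difference was not smaller with either score, while its SE rose, to 0.406 and 0.489 against Mkx-flox/+. The part of the muscle and mitochondrial shares in the Chst14 result cannot be told apart from genotype.

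Chst12 (ENSMUSG00000036599, chromosome 5, 140505550 to 140525724, plus strand) measured 13.8, 26.3 and 42.8 CPM in Mkx-CreER/flox. Its values were 37.4, 47.5 and 41.2 in Mkx-CreER/+ and 60.2, 97.7, 65.0 and 60.5 in Mkx-flox/+. Mkx-CreER/flox 5 lay within the Mkx-CreER/+ range, and every Mkx-CreER/flox and Mkx-CreER/+ library lay below the Mkx-flox/+ ones. Against Mkx-flox/+ it fell 2.56-fold (log2 -1.36, SE 0.309, edgeR adjusted p = 0.0200), and against both controls it did not pass (-0.98, SE 0.283, 0.0631). The difference between the controls was -0.75 (SE 0.301, edgeR adjusted p = 0.884). The call was lost without Mkx-CreER/flox 4 (-1.32, 0.0681) or Mkx-flox/+ 2 (-1.16, 0.0546). With the mitochondrial score as a covariate the value against Mkx-flox/+ was -0.40 (SE 0.354, 0.813).

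Chpf (ENSMUSG00000032997, chromosome 1, 75474569 to 75479307, minus strand) encodes a partner of the chondroitin synthases that is needed for chain extension. It measured 16.2, 21.1 and 27.6 CPM in Mkx-CreER/flox, 40.2, 34.5 and 22.1 in Mkx-CreER/+ and 41.6, 35.2, 41.0 and 48.3 in Mkx-flox/+. Mkx-CreER/+ 4 fell within the Mkx-CreER/flox range, and the Mkx-flox/+ libraries did not. Against Mkx-flox/+ Chpf fell 1.92-fold (log2 -0.94, SE 0.239, edgeR adjusted p = 0.0297), and against both controls the value was -0.76 (SE 0.219, 0.0620). Leaving out Mkx-CreER/flox 1 (-0.79, 0.0782) or 4 (-0.92, 0.0948), or any of Mkx-flox/+ 1, 3 and 4 (-0.96 to -0.87, 0.0630 to 0.0649), ended the call. With the mitochondrial score it was -0.24 (SE 0.311, 0.876).

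Dse (ENSMUSG00000039497, chromosome 10, 34151393 to 34207715, minus strand) encodes the dermatan sulfate epimerase. It measured 84.1, 84.5 and 106 CPM in Mkx-CreER/flox, 110.7, 144 and 126 in Mkx-CreER/+ and 131, 152, 149 and 134.5 in Mkx-flox/+. As with Chst14, the Mkx-CreER/flox libraries were below all 7 controls, here by a smaller step. Against Mkx-flox/+ it fell 1.55-fold (log2 -0.63, SE 0.164, edgeR adjusted p = 0.0328), and against both controls it stood just outside the threshold (-0.55, SE 0.151, 0.0512). The call was lost without Mkx-CreER/flox 1 (-0.59, 0.0672) or 4 (-0.58, 0.129) and without Mkx-flox/+ 1, 2 or 3 (-0.68 to -0.59, 0.0573 to 0.0841). With the mitochondrial score it was -0.36 (SE 0.235, 0.744).

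**Figure D4:**
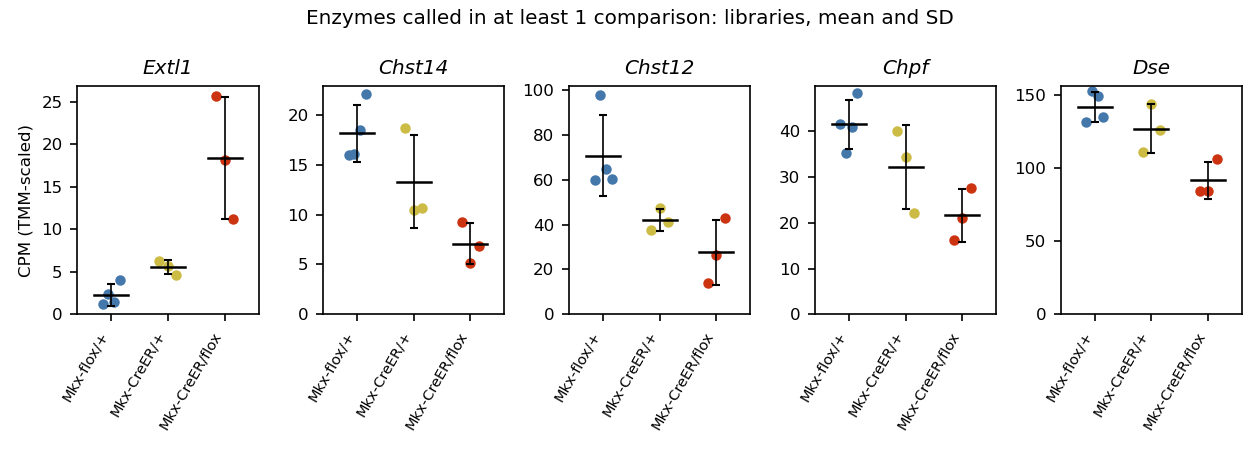
CPM (y axis) of the 5 enzymes called in at least 1 comparison, by genotype, with 1 point per library, the mean as a line and the SD as bars (n = 4, 3 and 3). Extl1 steps up from Mkx-flox/+ to Mkx-CreER/flox, and in Chst14, Chst12, Chpf and Dse the Mkx-CreER/flox mean is lowest.

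The order of the libraries was also read without a model. Against the 7 controls, the Mkx-CreER/flox libraries all lay higher in 1 of 35 enzymes (Extl1, 2.86%) and all lower in 2 (Chst14 and Dse, 5.71%), beside 3.81% and 3.12% of all genes tested. Against Mkx-flox/+ alone this was 1 higher (2.86%) and 6 lower (17.1%, with Ext2 and the chondroitin 6-O-sulfotransferase Chst7 besides the 4 called), beside 10% and 9.50% of all genes. Chst7 and Ust were named after their values were seen. Chst7 stood at -0.47 against Mkx-flox/+ (SE 0.326, edgeR adjusted p = 0.427).

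Against Mkx-CreER/+ alone, edgeR called 0 of the 35 enzymes, beside 0.00624% of all genes, which is 1 gene, Mkx. DESeq2 called 1 (Extl1), beside 0.787% of all genes, and limma voom 2 (Extl1 and Chst14, 5.71%), beside 4.46%. At an unadjusted p under 0.05 there were 4 (11.4%), namely Extl1, Chst14, Dse and Chpf, beside 10.7% of all genes. In 4 enzymes these libraries did not overlap, Extl1 above and Chst14, Dse and the uronyl sulfotransferase Ust below, beside 12.8% of all genes on either side. Ust measured 17.9, 26.3 and 31.1 CPM in Mkx-CreER/flox and 31.6 to 39.5 in Mkx-CreER/+, at -0.47 (SE 0.257, edgeR adjusted p = 0.548). The median over the 35 enzymes was -0.08, against 0.03 for all genes. Shares this near the background say little about the enzymes as a set.

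The controls were also set against each other. Mkx-CreER/+ against Mkx-flox/+ gave 0 calls among the 35 enzymes, in edgeR, DESeq2 and limma voom alike, beside 0%, 0.231% and 0% of all genes. At an unadjusted p under 0.05 edgeR had 4 (11.4%), namely Extl1, Chst12, Ext2 and Chsy3, beside 4.98% of all genes. Their libraries did not overlap in 4 enzymes, Extl1 above and Chst12, Ext2 and the heparan 3-O-sulfotransferase Hs3st1 below, beside 6.77% of all genes. Chsy3, a chondroitin synthase, measured 24.7 to 35.1 CPM in Mkx-CreER/+ and 28.8 to 73.0 in Mkx-flox/+ (-0.74, SE 0.289, edgeR adjusted p = 0.854). Chsy3 and Hs3st1 were named after their values were seen. For Extl1, Chst12 and Ext2 the Mkx-CreER/+ mean lay between the other 2 genotypes. The calls against Mkx-flox/+ and their absence against Mkx-CreER/+ are not shown to differ, since that difference is the comparison of the controls.

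The linker enzymes showed no called difference. Xylt1 measured 43.0, 44.7 and 61.5 CPM in Mkx-CreER/flox, 26.9, 30.2 and 61.5 in Mkx-CreER/+ and 68.6, 40.3, 53.6 and 47.2 in Mkx-flox/+. Its groups overlapped, at 0.12 against both controls (SE 0.248, edgeR adjusted p = 0.834). B3gat3, which completes the linker, measured 9.23, 12.96 and 13.6 CPM in Mkx-CreER/flox, 13.1, 11.1 and 17.0 in Mkx-CreER/+ and 14.99, 13.4, 14.0 and 13.9 in Mkx-flox/+. The linker enzyme of smallest p was the second xylosyltransferase Xylt2, at -0.29 (SE 0.199, edgeR adjusted p = 0.448). Over the 5, log2 fold changes against both controls ran from -0.29 to 0.12.

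Chondroitin polymerization outside Chpf did not pass either. Csgalnact2 measured 142, 98.0 and 113 CPM in Mkx-CreER/flox, 91.4, 79.5 and 144 in Mkx-CreER/+ and 129.8, 129, 114 and 85.8 in Mkx-flox/+. The groups overlapped throughout (0.10 against both controls, SE 0.202, edgeR adjusted p = 0.840). The other members of this step, Csgalnact1, Chsy1, Chsy3 and Chpf2, ran from -0.31 to 0.30. Of the exon length of Chpf2, 44.1% overlaps Smarcd3 on the other strand, so its counts are uncertain where reads were counted without regard to strand.

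Within chondroitin and dermatan modification the 5 tested enzymes not called against Mkx-flox/+ were Chst3, Chst7, Chst11, Chst15 and Ust, at -0.47 to 0.25. Counts summed over the class gave 198, 233 and 299 CPM in Mkx-CreER/flox 1, 4 and 5. In Mkx-CreER/+ the sums were 290.4, 326 and 331, and in Mkx-flox/+ 329, 383, 363 and 346. Mkx-CreER/flox 5 fell within the Mkx-CreER/+ range, and the other 2 Mkx-CreER/flox libraries lay below all controls. Among the 4-O-sulfotransferases per kilobase, the share of Chst14 was 20.5% ± 4.61 in Mkx-flox/+ (n = 4), against 21.9% ± 7.75 in Mkx-CreER/+ (n = 3) and 20.4% ± 12.7 in Mkx-CreER/flox (n = 3). That of Chst12 was 68.6% ± 6.29, 61.3% ± 6.80 and 59.0% ± 11.5. The ranges of both shares overlapped between the genotypes. For Chst14 the Mkx-CreER/flox mean joined values on either side of the controls, which ran from 14.4% to 30.9%. Library 1 of that genotype, at 35.0%, lay above every control. Its libraries 4 and 5, at 13.8% and 12.4%, lay below every control. The similar means therefore do not show that the Chst14 share was unchanged.

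Heparan modification and hyaluronan synthesis had 0 called members in any of the 4 edgeR comparisons. Ndst1 measured 67.6, 99.95 and 115.4 CPM in Mkx-CreER/flox, 85.2, 74.0 and 115 in Mkx-CreER/+ and 99.96, 111, 84.5 and 124 in Mkx-flox/+, with overlapping groups (-0.05 against both controls, SE 0.195, edgeR adjusted p = 0.916). Ndst2 had the smallest p of its class, at -0.29 (SE 0.225, 0.519). The class ran from -1.004 to 0.28, its lower end being Hs6st2, whose SE was 1.02.

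Has2 was the highest hyaluronan synthase per kilobase (2.997 RPKM, with Has3 at 1.75 and Has1 at 1.60). It measured 12.5, 11.7 and 10.7 CPM in Mkx-CreER/flox, 15.2, 9.72 and 16.4 in Mkx-CreER/+ and 13.6, 18.3, 10.3 and 8.51 in Mkx-flox/+. Has1 measured 5.07, 7.36 and 6.21 CPM in Mkx-CreER/flox, 5.62 to 10.5 in Mkx-CreER/+ and 4.44 to 9.54 in Mkx-flox/+. Has3 measured 9.77, 10.7 and 13.8 CPM in Mkx-CreER/flox, 6.88 to 11.8 in Mkx-CreER/+ and 8.81 to 17.4 in Mkx-flox/+. In each of the 3 the groups overlapped, at -0.32 (SE 0.288) for Has1, -0.18 (SE 0.253) for Has2 and 0.05 (SE 0.258) for Has3 against both controls. On the other strand, Has2os covers 4.3% of the exon length of Has2.

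Other genes of the pathway were read from companion lists. Against both controls, 1 of 16 tested genes of precursor supply rose (6.25%), beside 3.03% of all genes called higher. It was Ugp2, the enzyme that makes UDP-glucose (1.51, SE 0.310, edgeR adjusted p = 0.0249). Ugp2 stood at 107 ± 21.9 CPM in Mkx-flox/+ (n = 4), at 175 ± 37.8 in Mkx-CreER/+ (n = 3) and at 389.6 ± 271 in Mkx-CreER/flox (n = 3), a wide spread in the last. Of 18 tested genes of glycosaminoglycan breakdown 1 fell (5.56%), beside 1.62% of all genes called lower. It was the lysosomal hexosaminidase subunit Hexa (-0.80, SE 0.202, edgeR adjusted p = 0.0376). Hexa stood at 65.2 ± 13.0, 53.2 ± 14.6 and 33.8 ± 3.99 CPM in the same order. Among 11 other chain-modifying enzymes, 8 genes of keratan sulfate synthesis and 22 core proteins, 0 were called.

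Against Mkx-flox/+ alone, 5 of the 18 breakdown genes fell (27.8%) and 0 rose, beside 2.90% of all genes called lower, with a median of -0.55 over the list. All 12 macrophage markers fell in the same comparison (median -1.38), and their part in the result was not tested. Among the 5 breakdown genes that fell were Hexa (-0.95), the heparan-degrading enzymes Naglu (-1.10) and Hgsnat (-0.66), and Arsb (-0.69), a chondroitin and dermatan sulfatase. Of the 22 core proteins 4 fell (18.2%) and 1 rose (4.55%), beside 2.90% and 4.37% of all genes. Among them were biglycan (Bgn, -0.90), the syndecan Sdc1 (-1.07) and the glypican Gpc3 (1.36). Of 11 other chain-modifying enzymes 1 rose and 1 fell (9.09% each), and of 16 precursor genes Ugp2 rose (1.86), which is 6.25%. Against Mkx-CreER/+ alone 0 genes of these 5 lists were called. Against both controls and against Mkx-flox/+, 0 genes of the 5 lists were called with any of the 3 scores as a covariate over all 10 libraries. Apart from Ugp2 and Hexa, these genes were named after their values were seen.

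**Figure D5:**
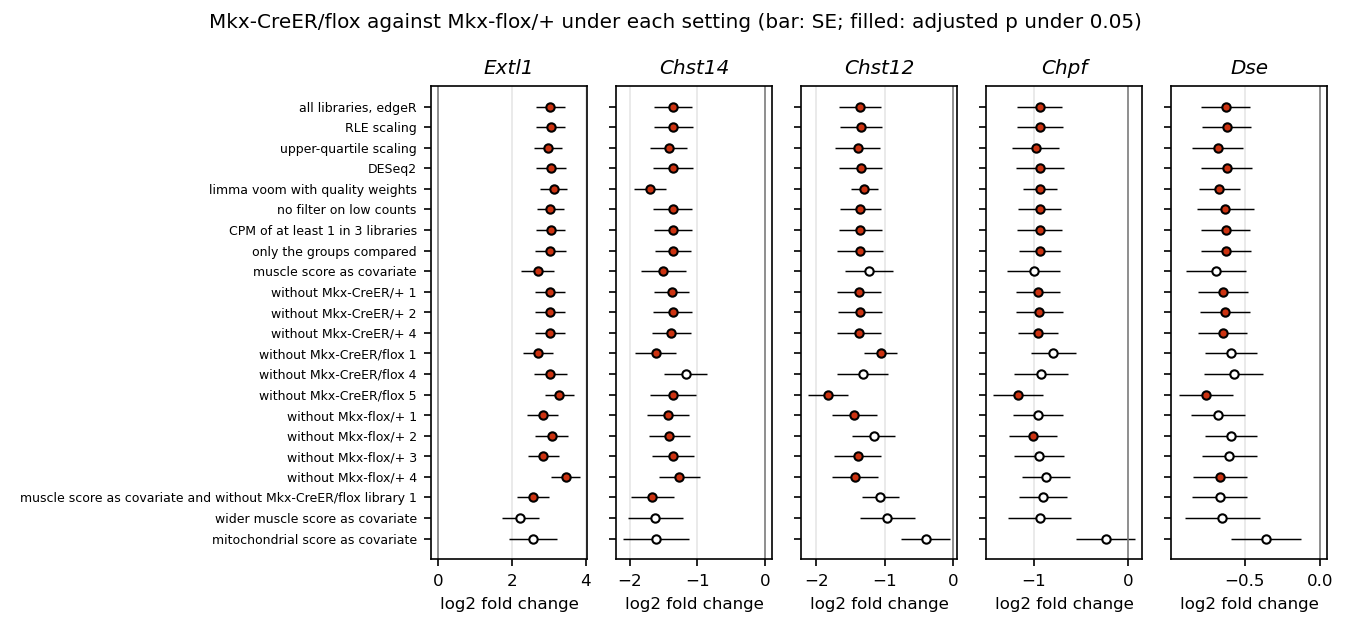
Log2 fold change (x axis, bars for the SE) of the 5 enzymes in Mkx-CreER/flox against Mkx-flox/+ under each setting (y axis), filled where the adjusted p is under 0.05. The direction is the same in each setting, Extl1 is unfilled only with the wider muscle and the mitochondrial scores, and Chpf and Chst12 come nearest to 0 with the mitochondrial score.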

How the data were processed

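Achilles tendon RNA of 10 libraries was measured by RamDA-seq, which reads total RNA. The authors deposited 1 table of raw counts per Ensembl gene, not normalized. Per the submitters' processing notes, fastp, STAR and mm10 were used. The sources used here do not state versions, the counting tool or the strand setting. Columns of Mkx-flox/+ were mapped to samples by number, the others by genotype only. Symbols and exon lengths came from GENCODE vM21 (32235 of 32285 identifiers matched).

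Genes were filtered with filterByExpr of edgeR 4.0.16 (R 4.3.3), scaled by TMM and fitted in 1 robust quasi-likelihood model with a term per genotype over all 10 libraries. Calls were made at a Benjamini-Hochberg adjusted p under 0.05 over 16017 genes. The 4 comparisons were Mkx-CreER/flox against both controls (their mean, with equal weight per genotype), against each control, and the controls against each other. CPM are TMM-scaled, and RPKM divide CPM by union exon length. The method was tested on simulated data. Library pairs of a genotype differed by 21.7 to 108 times counting error (chi-square per degree of freedom), and depth limits cover counting error only.

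Members and lists were chosen with earlier results of these data known. Named are enzymes called in any comparison, the 2 highest per kilobase and the smallest p of each class, the Has genes, enzymes left out by the filter, and of each companion list at most 4 genes called against both controls. Other enzymes with values were added after those were seen. Alternatives were DESeq2 1.42.0, limma voom 3.58.1, other scalings and filters, only the groups compared, a muscle score (mean log2 CPM of 20 genes, prior count 2) and each library left out. Chosen after the data were seen were that score without Mkx-CreER/flox 1, a 32-gene muscle score and a score of 9 mitochondrially encoded genes.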

Additional observations from a re-analysis of the deposited data

Results flagged for a closer look

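Of 36 genes examined in the 4 Mkx-flox/+ libraries, 3 had 1 library far from the other 3, where chance gives about 1 in 20. Chst12 was high in Mkx-flox/+ 2, at 97.7 CPM against 60.2 to 65.0 in the others, and its call against Mkx-flox/+ was lost without that library (-1.16, edgeR adjusted p = 0.0546). Glce, the heparan epimerase, was low in Mkx-flox/+ 3, at 34.8 CPM against 49.2 to 50.3. Ust was low in Mkx-flox/+ 1, at 21.5 CPM against 37.8 to 40.3.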

How the results depend on the processing

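Against both controls, 2 enzymes were called, and the count was 5 in DESeq2, 6 in limma voom, 1 with the 20-gene muscle score, 0 with the 32-gene muscle score, 0 with the mitochondrial score and 1 to 5 with 1 library left out. Of the 16017 genes tested, 744 were called, and 1459, 2991, 110, 4 and 7 with these first 5 alternatives, so the count of enzymes moved with that of all genes. With 1 library left out, calls among all genes ran from 64 of 16410 (without Mkx-CreER/flox 4) to 1114 of 16462 (without Mkx-CreER/+ 4). Against Mkx-flox/+ alone, 5 were called. The count was 2 with the 20-gene muscle score, 2 with that score and Mkx-CreER/flox 1 left out, and 0 with each of the 32-gene and mitochondrial scores. Calls among all genes were 1165 and then 204, 443, 12 and 5 in these 4 settings. With 1 library left out, 1 to 6 enzymes were called. Calls among all genes then ran from 455 of 15921 (without Mkx-flox/+ 1) to 1585 of 16469 (without Mkx-CreER/flox 5). Against Mkx-CreER/+ alone the count of 0 became 1 in DESeq2 and 2 in limma voom. Mkx itself against Mkx-CreER/+ lost its call with only the groups compared (-1.66, adjusted p = 0.0575) and with the mitochondrial score (-1.60, 0.0731), and lay between -1.71 and -1.58 with 1 library left out. Between the controls DESeq2 called Mkx (-0.77, 0.0289). The direction of Extl1, Chst14, Chst12, Chpf, Dse and Mkx was the same under every alternative run, and the cause of the lost calls was not tested. No paired analysis was possible because the column numbers of Mkx-CreER/+ (1, 2 and 4) and Mkx-CreER/flox (1, 4 and 5) cannot be matched to the replicate numbers of the labels.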
